A study of Mus musculus with 16 samples.

Results

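Accessible chromatin around the genes of the Wnt pathway was compared between the neuroendocrine (NE) and the non-NE cells of mouse small cell lung cancer (SCLC). The 51 member genes were the protein-coding genes of the basic GENCODE annotation named Wnt, Fzd, Sfrp, Dkk, Rspo or Lgr followed by a number in the ranges of those families, together with *Lrp5*, *Lrp6*, *Axin2*, *Lef1*, *Tcf7*, *Tcf7l1* and *Tcf7l2*. A listed peak belonged to them when the transcription start site nearest to its centre, among all protein-coding start sites, was that of a member gene. This gave 350 of the 80367 peaks in the lists of changed accessibility.

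The cells came from *TKO;Hes1* GFP/+ mice, in which floxed *Rb*, *p53* and *p130* were deleted in the lung by intratracheal Adeno-CMV-Cre at 8 to 12 weeks of age, so that any infected cell type could recombine. Cells of both populations carried GFP at 1 allele of *Hes1*, a target gene of Notch signaling. Tumors of a mouse were pooled 6 to 7 months after infection and sorted into GFP high cells, which are non-NE, and GFP neg cells, which are NE, after removal of cells positive for CD45, CD31 or TER-119. The cells were also stained for CD24, which the paper names as a positive selection marker. The 8 ATAC-seq libraries formed 4 pairs from 3 mice, 1 of which gave 2 pairs, and each library was run on 2 lanes.

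Wnt proteins are secreted, lipid-modified ligands that bind Frizzled receptors together with the co-receptors Lrp5 or Lrp6. Binding stabilizes β-catenin, which enters the nucleus and acts with the TCF/LEF DNA-binding proteins, whereas other Wnt proteins signal without β-catenin and steer cell polarity and movement. In the lung, Wnt signals specify the lung field in the embryo, pattern the growing airways and keep alveolar type 2 cells in a stem cell state.

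Of the 350 peaks, 212 were opened, meaning more accessible in GFP high cells, and 138 were closed, meaning more accessible in GFP neg cells. The opened share was 60.6% (95% Wilson interval 55.4 to 65.5%), beside 50.8% of all listed peaks, and the closed peaks made up 49.2% of all listed peaks. The interval covers counting error only, because peaks are neither replicates nor independent of their neighbours. In sorted bulk samples, fewer cells of a type and less accessibility per cell cannot be told apart. At least 1 listed peak lay nearest to 47 of the 51 genes (92.2%), beside 66.8% of all protein-coding genes, for which the median length of sequence nearest to a gene was shorter (47.4 kb, beside 109 kb for the member genes). *Wnt2b*, *Wnt10a*, *Wnt10b* and *Dkk4* had none. Opened peaks outnumbered closed peaks at 31 genes, closed peaks outnumbered opened peaks at 13 (60.8 and 25.5%, beside 36.7 and 25.1% of all protein-coding genes), and the counts were equal at 3. These shares include genes without a listed peak, which were rarer among the members. Among genes with a listed peak, the counts were 31 and 13 of 47 members, beside 8001 and 5468 of 14580 protein-coding genes. Both kinds occurred at 24 genes, 15 had opened peaks alone and 8 had closed peaks alone (47.1, 29.4 and 15.7%), beside 27.7, 24.6 and 14.5% of all protein-coding genes. An opened peak was thus nearest to 39 genes and a closed peak to 32 (76.5 and 62.7%), beside 52.3 and 42.2% of all protein-coding genes.

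An opened peak lay within 1 kb of an own start site in 23 of the 51 genes (45.1%), beside 28.6% of all 21827 protein-coding genes. A closed peak lay there in 7 genes (13.7%), beside 8.67% of all protein-coding genes. Both kinds were found at the start sites of 0.779% of all protein-coding genes and of no member gene. The 7 genes with a closed promoter were the ligand genes *Wnt3*, *Wnt8a* and *Wnt16*, the R-spondin genes *Rspo3* and *Rspo4*, the receptor gene *Lgr5* and the transcription factor gene *Lef1*.

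The ligand genes carried 111 peaks, 67 of them opened (60.4%, interval 51.1 to 69.0%), beside 50.8% of all listed peaks. *Wnt7b*, which the lung epithelium secretes and which supports growth of the developing lung, had 18 opened peaks and 1 closed peak. The 3 sites at its promoter had authors' mean normalized counts of 165, 93.0 and 30.1, where the authors' mean is taken over all libraries and so says nothing of either population alone. The sites with 165 and 93.0 lay in intron 1, at internal start sites. Upstream, 12 of the opened peaks formed 3 runs between 28.4 and 74.5 kb from the start site. A run here is at least 3 neighbouring peaks of the same list at the same gene, with gaps of at most 10 kb, a description added after the positions had been seen. In the farthest run, the peaks at 63.1, 64.3 and 71.2 kb lay at start sites of other annotated genes, and that at 74.5 kb in an intron of one. The strongest peak of all ligand genes was in the middle run, at chr15:85634371-85635261, 52.3 kb upstream in intergenic sequence, with an authors' mean of 901. The only closed peak of *Wnt7b* lay 23.7 kb upstream, between opened neighbours, with an authors' mean of 79.4.

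*Wnt16* had the opposite arrangement, with 12 closed peaks and 1 opened peak. Its promoter held 3 closed peaks within 1 kb, 128 bp upstream and 285 and 649 bp downstream of the start site, with authors' means of 149, 56.3 and 90.2. Of its other closed peaks, 6 lay in introns of its neighbours *Cped1* and *Fam3c*, up to 98.4 kb away. *Wnt3*, a classical activator of β-catenin signaling, had 5 peaks, all closed. They comprised its promoter, 3 sites in intron 1 and a site inside *Nsf*, and the site in intron 1 at chr11:103800960-103801568 had the highest authors' mean of any closed ligand peak, 159. *Wnt8a* had a closed peak alone, 966 bp upstream of its start site, with an authors' mean of 28.2.

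Opened promoters were found at 8 of the 19 ligand genes (42.1%, beside 28.6% of all protein-coding genes), namely *Wnt1*, *Wnt4*, *Wnt5b*, *Wnt6*, *Wnt7a*, *Wnt7b*, *Wnt9a* and *Wnt11*. Of their promoter peaks, that of *Wnt9a* was the strongest with an authors' mean of 225, followed by *Wnt7b* with 165, and those of *Wnt6* and *Wnt7a* were weak, with 30.8 and 31.5. The *Wnt5b* peak marked an internal start site in the long annotated transcript, 251 bp from it, and 4 of the 5 closed peaks of this gene lay upstream inside *Erc1*. *Wnt11*, a ligand of the polarity branch, had 9 opened and 4 closed peaks. A run of 6 opened peaks covered 13.9 kb, from 51.0 to 64.7 kb upstream of it, and 3 of its closed peaks lay downstream of the gene. *Wnt4* had 5 opened and 7 closed peaks. Its promoter and intron 1 were opened, whereas the 4 sites downstream of the gene, 23.0 to 39.8 kb from the start site, were all closed.

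*Wnt5a*, the best known ligand that acts without β-catenin, had no listed peak at its start site. Its 9 opened and 5 closed peaks were spread over a wide territory, and all but 1 of the opened sites lay upstream inside *Erc2*. *Wnt2*, a ligand of the lung mesenchyme that specifies the organ with *Wnt2b*, had 3 opened peaks, all of them 83.9 to 95.6 kb from its start site and beyond its end. *Wnt8b* had 4 opened peaks, 19.1 to 38.6 kb upstream, and no closed peak. Those from 34.5 to 38.6 kb lay inside other annotated genes that do not code for protein. *Wnt3a* and *Wnt9b* had 1 opened peak each, with authors' means of 19.3 and 12.5.

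All 10 Frizzled genes had an opened peak, beside 52.3% of all protein-coding genes, and 6 also had closed peaks, beside 42.2%. A longer sequence nearest to a gene gives more room for a peak. Per 100 kb of that sequence, the Frizzled genes held 3.01 opened and 1.53 closed peaks, beside 1.50 and 1.45 for all protein-coding genes. Of 92 peaks, 61 were opened (66.3%, interval 56.2 to 75.1%), beside 50.8% of all listed peaks. The promoters of *Fzd1*, *Fzd2*, *Fzd3*, *Fzd7*, *Fzd8*, *Fzd9* and *Fzd10* held an opened peak (7 of 10, beside 28.6% of all protein-coding genes). None held a closed peak, which 8.67% of all protein-coding genes did. The highest authors' mean at the promoter was 496 for *Fzd8*, 477 for *Fzd1*, 457 for *Fzd7*, 376 for *Fzd3*, 204 for *Fzd2*, 158 for *Fzd10* and 143 for *Fzd9*. Over all 10 opened Frizzled promoter peaks, 2 weak ones of *Fzd2* with 23.7 and 22.3 included, the median was 181, beside 169 over the opened promoter peaks of all protein-coding genes and 99.8 over the 33 of all member genes. *Fzd3*, a receptor of the polarity branch that guides growing axons, had its promoter peak and no other.

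*Fzd7*, a receptor of epithelial stem cells, had 12 opened peaks and no closed peak, and 6 of the 12 lay in a run within 9.90 kb of its start site. *Fzd1* had the most opened peaks of the family, 13 beside 4 closed. Of these, 9 lay downstream of this short gene, the farthest at 269 kb, and its 4 closed peaks lay upstream in *Cdk14*. *Fzd5*, a receptor used by gut and eye epithelium, had 10 opened and 3 closed peaks. The strongest opened Frizzled peak was assigned to it, in an intron of *Plekhm3* at chr1:64808961-64809570, 71.5 kb upstream, with an authors' mean of 569. Its start site had no listed peak within 1 kb.

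*Fzd8* had the most closed peaks of the family, 10 beside 8 opened. The lists separated along the upstream sequence. All 10 closed peaks lay 268 to 566 kb from the start site, and 7 of the 8 opened peaks lay within 239 kb. The strongest closed Frizzled peak was among the former, at chr18:8911393-8912214, with an authors' mean of 237. *Fzd4*, the receptor of norrin in blood vessels of the eye, had 7 closed and 4 opened peaks, the opened ones all downstream and 5 of the closed ones upstream inside *Tmem135*. *Fzd6*, another receptor of the polarity branch, had 2 peaks of each list, and *Fzd10* 5 of each.

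The co-receptor genes had 17 opened and 6 closed peaks (73.9% opened, interval 53.5 to 87.5%), beside 50.8% of all listed peaks. *Lrp5* supplied 12 of the opened peaks, 10 of them inside the gene, and had 2 closed peaks. With 18.1 opened peaks per 100 kb of the sequence nearest to its start sites, it was the densest member gene. Its promoter peak, 22 bp upstream, had the highest authors' mean of the opened co-receptor peaks, 121. The highest of the closed ones, 100, also belonged to *Lrp5*, at chr19:3674267-3674904 in intron 1. *Lrp6* had no listed promoter peak, and its 5 opened and 4 closed peaks were interspersed in its introns.

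The secreted antagonists had 15 opened and 7 closed peaks (68.2% opened, interval 47.3 to 83.6%), beside 50.8% of all listed peaks, a share inside the interval. *Sfrp2*, a soluble Frizzled-like protein that binds Wnt ligands, had 8 opened peaks and no closed peak. They included its promoter, 97 bp upstream, with an authors' mean of 27.3, and the strongest opened antagonist peak, in intron 1, with 76.3. *Sfrp4* had 3 opened peaks, 2 of them at its promoter with authors' means of 59.9 and 17.2. *Dkk2*, whose product binds the co-receptors, had 4 peaks, all closed, the strongest of them intergenic and 47.4 kb upstream with an authors' mean of 94.4. *Sfrp1* had 2 closed peaks with low means of 7.37 and 13.2. *Dkk1* and *Dkk3* had 1 opened peak each, and *Sfrp5* had 2 opened and 1 closed.

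R-spondins and their Lgr receptors strengthen Wnt signals by keeping ubiquitin ligases from removing Frizzled proteins. They were the sole role group with more closed than opened peaks. Of 36 peaks, 12 were opened (33.3%, interval 20.2 to 49.7%), beside 50.8% of all listed peaks, just outside the interval. Every gene of the group had a closed peak, beside 42.2% of all protein-coding genes, and *Lgr4*, *Lgr5* and *Rspo4* had no opened peak. Per 100 kb of the sequence nearest to its genes, the group held 2.05 closed and 1.03 opened peaks, beside 1.45 and 1.50 for all protein-coding genes. *Lgr5*, a marker of stem cells in gut and skin, had 5 closed peaks, 2 of them at its promoter with authors' means of 46.9 and 28.5. *Rspo4* had 6, at its promoter (authors' mean 61.5), in intron 1 and upstream, where the site at chr2:151817660-151818405 had the highest authors' mean of the closed peaks of the group, 128. *Lgr4* had 5 closed peaks, all in intron 1 and 7.56 to 42.9 kb from the start site, and the highest closed density of any member gene, 7.88 per 100 kb.

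*Rspo3*, an R-spondin of endothelial and stromal cells, had a closed promoter peak with an authors' mean of 70.1 and 3 further closed peaks. Its opened peak in intron 4 was the strongest opened site of the group, with an authors' mean of 120. *Rspo2*, needed for the growth of lung and limb, had 6 opened peaks inside the gene and 2 closed peaks upstream of it. A run of 4 opened peaks lay in its intron 5. *Rspo1* had an opened promoter peak with an authors' mean of 99.8. At *Lgr6* the opened promoter peak was weak, with an authors' mean of 10.1, and marked an internal start site.

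Among the nuclear effectors and the feedback gene *Axin2*, 40 of 66 peaks were opened (60.6%, interval 48.5 to 71.5%). The share of all listed peaks, 50.8%, lay inside this interval, but the genes differed. *Lef1*, which encodes 1 of the TCF/LEF factors that act with β-catenin, had 15 closed peaks and no opened peak, the most closed peaks of any member gene. Its promoter peaks had authors' means of 114 and 22.0, and the one with 114 lay in intron 1, 463 bp upstream of an internal start site. The strongest, at chr3:131003384-131003831, lay 107 kb upstream in intergenic sequence with an authors' mean of 184, and 10 of the 15 were upstream of the gene. The other 3 genes of the family had opened promoters. *Tcf7l2* had 18 opened and 4 closed peaks, with 3 promoter peaks at more than 1 start site, the strongest with an authors' mean of 367. *Tcf7l1*, which mainly represses Wnt targets, had 10 opened and 6 closed peaks. Its promoter peak had the highest authors' mean of the group, 450, at chr6:72788749-72789447. In its intron 3, a run of 3 closed peaks at 64.3 to 74.6 kb from the start site was followed by a run of 4 opened peaks at 48.2 to 58.7 kb. *Tcf7* had 3 opened peaks and 1 closed, with an authors' mean of 162 at the promoter. *Axin2*, a widely used readout of β-catenin signaling, had 9 opened peaks and no closed peak, but none within 1 kb of its start site. The nearest was 9.81 kb away, and the strongest lay 57.5 kb downstream of the start site with an authors' mean of 284.

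The mix of opened and closed peaks changed with distance from the start site. Of the Wnt peaks within 1 kb, 75.0% were opened, beside 74.3% of all listed peaks at that distance. From 1 to 10 kb the shares were 69.2% and 58.8%, and from 10 to 100 kb 59.0% and 49.6%. Beyond 100 kb 49.1% of 57 Wnt peaks were opened (interval 36.6 to 61.7%), beside 32.5% of all listed peaks. By class, 19.8% of the opened Wnt peaks were in promoters of any annotated gene, 3.77% in exons, 42.9% in introns and 33.5% intergenic. For the closed Wnt peaks these shares were 11.6%, 2.17%, 42.8% and 43.5%. Of all opened peaks, 22.3% were in promoters, 3.53% in exons, 45.0% in introns and 29.1% intergenic, and of all closed peaks 9.68%, 3.56%, 51.5% and 35.2%. The intron and intergenic shares of all closed peaks lay just outside the intervals of the closed Wnt peaks, 34.8 to 51.1% and 35.5 to 51.8%. A protein-coding gene other than the assigned one held 21.7% of the closed Wnt peaks (interval 15.7 to 29.3%) and 12.7% of the opened ones (8.90 to 17.9%), beside 11.7% of all closed and 12.1% of all opened peaks. Peaks at or inside genes that do not code for protein are not in these shares.

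The sequence nearer to a gene's start sites than to those of another protein-coding gene had a median length of 109 kb for the member genes and 47.4 kb for all protein-coding genes. Per 100 kb, the sequence of the member genes held 2.53 opened and 1.65 closed peaks, beside 1.50 and 1.45 for all genes. Co-receptor genes held 9.70 opened peaks per 100 kb and secreted antagonist genes 1.02. The median authors' mean was 31.6 for opened and 23.6 for closed Wnt peaks, beside 40.7 and 25.8 over all listed peaks. Opened ligand peaks had a median of 43.2 and opened peaks of the nuclear group 23.5. The median GC content of the 200 bp around the centre was 51.5% for opened and 49.5% for closed Wnt peaks, beside 50.5% and 48.5% over all listed peaks.

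Short strings that the named factor families recognize were counted on both strands of a window of 200 bp around the centre of each peak. The window ran past the ends of the peak in 34.9% of opened and 33.3% of closed Wnt peaks, beside 28.2% and 33.7% of all opened and closed peaks, so that a share is one of windows and a string in a window may flank the peak. The strings for TEAD and RBPJ, and those for TCF/LEF and AP-1, can overlap. Of all 80367 windows, 2.54% held the TCF/LEF string ATCAAAG, 13.5% the TEAD string CATTCC, 18.4% the AP-1 string TGANTCA, 8.25% the FOX string TGTTTAC and 18.5% the RBPJ string TGGGAA. The TEAD string was in the windows of 17.5% of opened Wnt peaks (interval 12.9 to 23.1%) and 7.97% of closed ones (4.51 to 13.7%), beside 18.2% and 8.77% of all opened and closed peaks. The AP-1 string showed the reverse, in 8.02% of opened (5.07 to 12.5%) and 26.1% of closed Wnt peaks (19.5 to 34.0%), beside 10.6% and 26.4%. FOX strings were in 5.19% of opened and 9.42% of closed Wnt peaks, beside 6.84% and 9.71%, and RBPJ strings in 18.9% and 19.6%, beside 20.7% and 16.3%.

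The TCF/LEF string, through which the pathway acts on its targets, was in the windows of 5 of 212 opened (2.36%) and 5 of 138 closed Wnt peaks (3.62%, interval 1.56 to 8.20%), beside 2.31% and 2.79% of all opened and closed peaks. Of these matches, 4 in each list lay inside the peak, whereas that in the intron of *Wnt11* began 19 bp and that of *Fzd4* 10 bp before the first base of a narrow peak. A search over the whole length of each peak found the string in 8 opened (3.77%) and 6 closed Wnt peaks (4.35%), beside 3.81% and 3.87% of all opened and closed peaks. The 10 windows belong to 8 genes and are shown in full, since they hold the string of the pathway's own effectors. They are given 5′ to 3′ on the plus strand of GRCm38.p6, with the match in capitals, ATCAAAG or its reverse complement CTTTGAT. A match describes the letters and does not show binding.

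Of the 5 opened windows, those of *Tcf7* (chr11:52283236-52283435) and *Wnt11* (chr7:98834946-98835145) are at the promoters, 322 and 85 bp upstream of the start site, with authors' means of 162 and 48.6. Both are rich in GC. The *Wnt8b* window (chr19:44454751-44454950) has the highest authors' mean, 183, lies 38.6 kb upstream and also holds an RBPJ string. The other *Wnt11* window (chr7:98841962-98842161) is in intron 3, with an authors' mean of 17.1, and also holds a TEAD string. The *Lgr6* window (chr1:135072902-135073101) is in intron 2, in a weak peak with an authors' mean of 5.79.
Tcf7 promoter: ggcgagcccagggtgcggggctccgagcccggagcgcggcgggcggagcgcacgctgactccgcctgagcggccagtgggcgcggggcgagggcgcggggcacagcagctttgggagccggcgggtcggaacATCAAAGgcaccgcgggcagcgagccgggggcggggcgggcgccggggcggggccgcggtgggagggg
Wnt11 promoter: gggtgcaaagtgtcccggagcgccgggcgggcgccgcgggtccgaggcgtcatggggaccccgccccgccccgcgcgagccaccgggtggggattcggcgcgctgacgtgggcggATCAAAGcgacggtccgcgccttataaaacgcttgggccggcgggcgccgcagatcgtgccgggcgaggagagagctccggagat
Wnt8b upstream: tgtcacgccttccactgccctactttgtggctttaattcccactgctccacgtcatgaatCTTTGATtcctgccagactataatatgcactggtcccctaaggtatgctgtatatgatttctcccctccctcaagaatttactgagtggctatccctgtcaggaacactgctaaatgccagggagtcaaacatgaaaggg
Wnt11 intron: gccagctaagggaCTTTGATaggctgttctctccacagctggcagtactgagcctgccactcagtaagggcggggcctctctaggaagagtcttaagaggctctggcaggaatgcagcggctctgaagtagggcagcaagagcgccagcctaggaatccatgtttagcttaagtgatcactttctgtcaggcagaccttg
Lgr6 intron: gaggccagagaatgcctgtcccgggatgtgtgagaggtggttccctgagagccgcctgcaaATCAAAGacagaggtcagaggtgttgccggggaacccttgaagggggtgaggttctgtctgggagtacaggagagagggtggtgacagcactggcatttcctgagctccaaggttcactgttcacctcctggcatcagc

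None of the 5 closed windows is at a promoter. *Fzd10* has a pair, 42.4 kb downstream (chr5:128643161-128643360, authors' mean 48.5) and 42.8 kb upstream of its start site (chr5:128557993-128558192, authors' mean 18.5). The *Wnt5a* window (chr14:28675582-28675781) is 164 kb downstream, with an authors' mean of 20.1. The *Lef1* window (chr3:130947124-130947323) is 163 kb upstream in a peak with an authors' mean of 13.8, and also holds an AP-1 string, as does the upstream *Fzd10* window. The *Fzd4* window (chr7:89397945-89398144) lies in an intron of *Tmem135*, 6.31 kb upstream of *Fzd4*, with an authors' mean of 9.00. An RBPJ string is also in the *Fzd4*, *Lef1* and downstream *Fzd10* windows.
Fzd10 downstream: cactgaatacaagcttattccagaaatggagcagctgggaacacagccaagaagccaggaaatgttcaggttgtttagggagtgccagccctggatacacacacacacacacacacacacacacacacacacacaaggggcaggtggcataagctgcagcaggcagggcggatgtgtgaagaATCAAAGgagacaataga
Fzd10 upstream: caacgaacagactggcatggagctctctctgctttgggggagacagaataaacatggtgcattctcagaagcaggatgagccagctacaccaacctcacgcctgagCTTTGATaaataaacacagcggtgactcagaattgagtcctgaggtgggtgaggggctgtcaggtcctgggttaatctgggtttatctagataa
Wnt5a downstream: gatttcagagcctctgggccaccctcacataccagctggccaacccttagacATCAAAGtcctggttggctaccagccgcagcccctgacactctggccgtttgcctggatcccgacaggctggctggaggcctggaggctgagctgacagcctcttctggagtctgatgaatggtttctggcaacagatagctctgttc
Lef1 upstream: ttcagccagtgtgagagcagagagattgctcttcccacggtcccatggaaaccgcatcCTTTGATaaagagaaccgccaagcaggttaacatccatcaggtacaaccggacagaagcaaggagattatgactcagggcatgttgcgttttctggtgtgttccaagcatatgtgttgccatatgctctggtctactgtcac
Fzd4 upstream: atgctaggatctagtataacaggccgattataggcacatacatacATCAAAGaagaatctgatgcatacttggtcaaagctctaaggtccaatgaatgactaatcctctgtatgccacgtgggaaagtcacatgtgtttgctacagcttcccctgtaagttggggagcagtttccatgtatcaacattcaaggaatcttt

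A further 62 genes of the pathway outside the member families carried 424 listed peaks, 257 of them opened (60.6%, interval 55.9 to 65.1%), beside 50.8% of all listed peaks. An opened promoter peak was found in 23 of the 62 genes (37.1%) and a closed one in 7 (11.3%), beside 28.6% and 8.67% of all protein-coding genes. *Nkd1* and *Notum* stand in 2 of the lists each, and are counted once in these totals. The nuclear partners of β-catenin had the highest opened share, 79.7% of 59 peaks. *Bcl9l*, a co-activator, had 18 opened peaks and no closed peak, and *Ctnnb1*, which encodes β-catenin, had 18 and 9. Cytoplasmic components had 31 opened and 16 closed peaks. There *Csnk1e*, a kinase of the pathway, had the most opened peaks, 7, and *Gsk3b*, a kinase that marks β-catenin for degradation, and *Tnks* the most closed, 5 each. The genes of ligand secretion and inactivation had 5 opened and 12 closed peaks. *Trabd2b*, a protease that cleaves Wnt proteins, had 7 closed peaks and no opened peak, *Wls*, which carries Wnt proteins to the cell surface, had 2 opened and 5 closed, and *Notum*, a lipase that inactivates Wnt proteins, had 2 opened.

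The other receptors had 36 opened and 33 closed peaks (52.2% opened), beside 50.8% opened of all listed peaks. *Ror1* had 13 opened and 6 closed, *Ror2* 9 closed and no opened, and *Tspan12*, a partner of *Fzd4* in norrin signaling, 6 opened and 16 closed. Other inhibitors had 47 of each list. *Wif1*, which binds Wnt ligands, had 12 opened and 1 closed peak, and *Rnf43* and *Znrf3*, the ubiquitin ligases that R-spondins act on, had 9 and 7 opened and 0 and 1 closed. *Dact2*, a cytoplasmic modulator, had 15 closed peaks and no opened peak. In the planar polarity list 67 of 110 peaks were opened, with *Daam1* highest at 20 opened and 7 closed, whereas *Prickle2* had 1 opened and 12 closed. General β-catenin targets, a list that holds both *Nkd1* and *Notum*, had 28 opened and 12 closed peaks. *Ccnd1* had 9 opened and 3 closed peaks, *Cd44* 9 opened and no closed, and *Nkd1* 2 opened and 8 closed.

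Markers of cell types were counted in the same way, to set the sorted populations beside the Wnt peaks. Around 10 NE markers, 64 of 75 peaks were closed, among them 28 of *Insm1*, beside 49.2% of all listed peaks. A closed promoter peak was found in 8 of the 10 genes and an opened one in none, beside 8.67% and 28.6% of all protein-coding genes. *Chga* had 8 of the 11 opened peaks beside 6 closed ones, and *Ncam1* the other 3 beside 9. *Syp* and *Dll3* had no listed peak. Opened peaks numbered 27 of 35 around the 5 club cell markers, 25 of 34 around the AT1 markers, 18 of 19 around the AT2 markers and 21 of 28 around the ciliated cell markers. Of all listed peaks, 50.8% were opened. Of the cells the sort removed or did not select, 8 leukocyte markers had 13 opened and 7 closed peaks and no promoter peak. Their opened share of 65.0% had an interval of 43.3 to 81.9%, which covers the 50.8% of all listed peaks. Of the opened peaks, 11 belonged to *Ptprc*, which encodes CD45. *Cd3g*, *Cd79a* and *Itgam* had none. Endothelial markers had 15 opened and 45 closed peaks (25.0% opened, interval 15.8 to 37.2%), 23 of the closed ones at *Cdh5*. Fibroblast and mural markers had 16 opened and 13 closed peaks (55.2% opened, interval 37.5 to 71.6%), beside 50.8% of all listed peaks. *Col3a1*, *Pdgfrb* and *Lum* had none. The part of such cells in the Wnt peaks was not tested.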

How the data were processed

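The authors trimmed the ATAC-seq reads, aligned them to mm10 (Bowtie2 2.3.4.1), dropped duplicates, called peaks with MACS2 and counted reads per library over the union of the peaks. The deposited signal of a peak is the authors' mean over all libraries of counts divided by DESeq2 size factors (version 1.28.1 in the submitters' processing notes). Both lists hold peaks past the authors' limits (adjusted p under 0.001, absolute log2 fold change over 1), which was checked on every row. The fold changes, standard errors, test statistics and p-values are the authors' own comparison and were not used beyond this check and the list a peak is in. Values per library were not used here, so depth per library is unknown and no test was run. Whether lanes, or the 2 pairs of 1 mouse, were summed is not given in the sources used here.

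Positions are 1-based, and every peak lies within a GRCm38.p6 chromosome. Gene models are those of the basic GENCODE set. A peak was classed by its centre, with promoters (up to 1 kb from a start site) taking precedence over exons, and exons over introns. Shares have 95% Wilson intervals (scipy 1.17.1, pandas 2.3.3, numpy 2.4.6, Python 3.11.15). Assignment, classes and string search were tested on simulated data. Genes were named by rule: members with a listed promoter peak, with the most opened or closed peaks overall or in their role group, with the strongest peak of the group, or without a peak, and the leading genes of each other pathway list. Further genes and the markers named were picked after their values were seen. Another string searched, for which the share of all closed peaks lay outside the interval of the closed Wnt peaks, and 2 marker genes are not reported here. Members, lists and rules were chosen with earlier results of these data known. Alternatives covered the assignment and merging of peaks, a minimum signal, the gene with the most peaks, the promoter distance, and the window and letters of the TCF/LEF string.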

Additional observations from a re-analysis of the deposited data

How the results depend on the processing

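The opened share of all Wnt peaks ranged from 59.1 to 64.4% over 5 alternatives, within its interval, and the share of the R-spondin and Lgr group from 21.4 to 43.2%. The 43.2%, of 37 peaks assigned by the gene body and 10 kb around it, lay closer to 50.8% than the main value of 33.3%. The lower share of this group thus depended on the assignment. The 50.8% of all listed peaks was not recomputed under these alternatives. Beyond 100 kb only 32.5% of all listed peaks were opened, so leaving out distant peaks raises that share too. The 64.4% came from a minimum authors' mean of 20. Over all listed peaks the median authors' mean was 40.7 for opened and 25.8 for closed peaks, so this minimum may raise that share as well. Assigning peaks by the gene body and 10 kb around it gave 139 opened and 79 closed peaks and opened shares of 79.2% for the Frizzled genes, 73.6% for the nuclear group and 59.0% for the co-receptors. This assignment leaves out distant peaks and takes in peaks nearer to the start site of another gene, so that co-receptor peaks rose from 23 to 39. A minimum authors' mean of 20 left 79 closed peaks. Without *Wnt7b* the ligand share was 53.3%, and without *Tcf7l2* the nuclear share was 50.0%. Without *Lrp5* the co-receptor share was 55.6%, of 9 peaks, and without *Sfrp2* the antagonist share was 50.0%. All lay inside the intervals of the full groups, which are wide and come from overlapping peaks. They also lay at or near the 50.8% of all listed peaks, so the opened excess of these groups rested largely on 1 gene each. A promoter distance of 3 kb raised the promoter share of opened Wnt peaks to 26.9%, beside 31.8% of all opened peaks. Searching the whole peak gave the TCF/LEF string in 3.77% of opened and 4.35% of closed Wnt peaks, beside 3.81% and 3.87% of all opened and closed peaks. With the shorter string TCAAAG, 13.2% of opened and 11.6% of closed Wnt peaks had a TCF/LEF match, beside 12.7% and 12.1% of all opened and closed peaks, and with the longer ATCAAAGG 0.472% and 1.45%, beside 0.676% and 0.842%. Of 55 values under alternatives, 45 stayed inside the interval or within 1.5 times the count, though most share their peaks with the main setting. No paired analysis was possible because the results come from no test and the lists used here hold 1 mean per peak over all libraries. The shares describe listed peaks, not accessible chromatin as a whole, and a gene without a listed peak may still be accessible in both populations.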
